A study of Mus musculus with 4 samples.

Results

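Nonclassical monocytes made up 548 of the 14411 cells kept from 4 single-cell RNA libraries of mouse lungs bearing orthotopically injected small cell lung cancer (SCLC). They were chosen by their measured UMIs, as cells with at least 2 unique molecular identifiers (UMIs, counted RNA molecules) of Treml4, Cd300e and Adgre4 together. Treml4 lies at chr17:48264295-48275360 (plus strand), Cd300e at chr11:115051917-115062177 (minus strand) and Adgre4 at chr17:55749984-55853662 (plus strand) of GRCm38. All 3 encode surface receptors of myeloid cells. A cell also had to hold at most 2 UMIs of the complement genes C1qa, C1qb and C1qc, at most 1 UMI of the T cell genes Cd3d, Cd3e and Cd3g, and at most 1 UMI of the B cell gene Cd79a. The neutrophil genes S100a8 and S100a9 had to stay under 3% of its UMIs. Because measured UMIs chose the cells, the levels of these genes are given only as a description.

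Each of the 4 groups was a single library of tumour-bearing mice. The first received an anti-PD-1 antibody (clone 29F.1A12) at 200 µg per mouse, aimed at a receptor that restrains T cells. The second received YKL-5-124, an inhibitor of the kinase CDK7, at 10 mg/kg. The third, the combination, received both agents, and the control group received vehicle with isotype IgG. Lungs were perfused, digested whole and sorted for live cells by DAPI. The sources used here give neither strain, age and length of treatment nor the number of animals per library. With 1 library per group, no difference could be set against the spread between animals and no test of a treatment was possible. The intervals printed are exact 95% intervals that cover counting error only.

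Monocytes are short-lived blood phagocytes made in the bone marrow. Classical, Ly6C-high monocytes are recruited into inflamed tissue through the receptor Ccr2. Nonclassical, Ly6C-low monocytes arise in mice largely from classical ones, depend on the nuclear receptor Nr4a1, and crawl along the inner wall of blood vessels with the help of the integrin LFA-1 and the fractalkine receptor Cx3cr1. The capillary bed of the lung is among the places where they patrol, taking up debris and particles.

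The libraries held 17329001 UMIs with anti-PD-1, 22357198 with YKL-5-124, 22950622 with the combination and 22384282 in control. Barcodes needed 500 UMIs or more from 300 genes or more, with 10% mitochondrial UMIs as the upper limit, and 2736, 4152, 4042 and 3481 cells were left in that order of groups. The nonclassical monocytes contributed 252138 UMIs with anti-PD-1, 751341 with YKL-5-124, 892498 with the combination and 216975 in control. Their median depth was 2103 UMIs with anti-PD-1, 3510.5 with YKL-5-124, 3517 with the combination and 3037 in control, so the anti-PD-1 cells were the shallowest. A gene with no UMI in these cells could still be present at up to 11.9, 3.99, 3.36 and 13.8 CPM, that is, UMIs scaled to the same total in every library, in the same order.

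Each pair of libraries had 469 to 537 cell barcodes in common. In all, 2251 cells carried a barcode that was also a cell of another library. Only 10 of them were nonclassical monocytes, and no barcode was a nonclassical monocyte in a pair of libraries. Of these 10 cells, 3 in the YKL-5-124 library were very large, with 16062 to 39109 UMIs each. They held 403 of the 450 UMIs of SCLC tumour genes and 1580 of the 2260 UMIs of mitosis genes found in all nonclassical monocytes of that library. Members holding at least 3 UMIs of the markers of another cell class are called mixed members below. They numbered 11 of 81 with anti-PD-1, 26 of 174 with YKL-5-124, 12 of 228 with the combination and 2 of 65 in control. Mixed members stayed in the main values, and values without them stand beside the results described as resting on them.

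Nonclassical monocytes took a larger share of the cells in every treated library than in control. They were 2.96% of cells with anti-PD-1 (95% interval 2.36 to 3.67%), 4.19% under YKL-5-124 (3.60 to 4.85%) and 5.64% with the combination (4.95 to 6.40%), against 1.87% in control (1.44 to 2.37%). The share was thus 1.59 times that of control with anti-PD-1 (1.13 to 2.23), 2.24 times under YKL-5-124 (1.68 to 3.03) and 3.02 times with the combination (2.28 to 4.04). The combination stood above each single agent, at 1.35 times the share with YKL-5-124 (1.10 to 1.65) and 1.91 times the share with anti-PD-1 (1.47 to 2.49). A share depends on every other cell in the sort, so more monocytes and fewer other cells cannot be told apart. Outside cells rich in S100a8 and S100a9, the share was 3.04% with anti-PD-1, 4.99% with YKL-5-124, 5.85% with the combination and 1.91% in control. With every cell thinned to 1500 UMIs it was 2.38, 3.11, 4.20 and 1.36% in that order of groups, and without mixed members it was 2.56, 3.56, 5.34 and 1.81%. The order of the 4 libraries was the same each time. The ratio for anti-PD-1 over control was the least secure, at 1.41 (0.991 to 2.02) without mixed members and 1.50 (0.988 to 2.28) with a gate of 3 UMIs. Outside the S100a8- and S100a9-rich cells the combination over YKL-5-124 was 1.17 (0.959 to 1.44). That alternative changed only the cells divided by. The limit on S100a8 and S100a9 was also passed by 31 of 219 cells with at least 2 gate UMIs with YKL-5-124, against 0 of 245 with the combination. The part of those cells in the ratio was not tested.

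**Figure D1:**
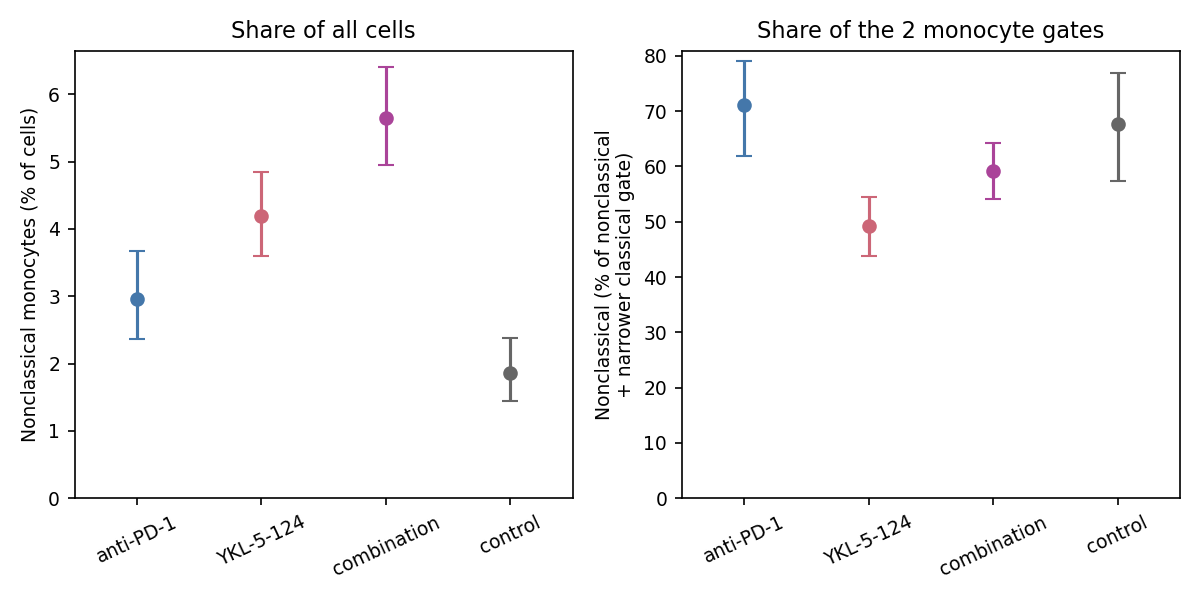
Share of nonclassical monocytes in each library, as a percentage of all cells (left) and of the cells in the nonclassical and narrower classical monocyte gates together (right), with exact 95% intervals for counting error and 1 library per group. The share of all cells was highest with the combination (5.64%) and lowest in control (1.87%), while the share of the 2 monocyte gates was highest with anti-PD-1 (71.1%) and lowest with YKL-5-124 (49.2%).

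Within the monocytes, the balance did not follow the share of all cells. Classical monocytes were first taken by a gate on Ly6c2, Ccr2, F13a1 and Vcan, whose cells were led by natural killer (NK) cell genes. A narrower gate was therefore added after the data were seen, which also asked for at least 2 UMIs of the lysozyme gene Lyz2 and few NK and dendritic cell UMIs. It held 33 cells with anti-PD-1, 180 with YKL-5-124, 157 with the combination and 31 in control. Nonclassical cells were 71.1% of the cells in both gates with anti-PD-1 (61.8 to 79.2%), 49.2% with YKL-5-124 (43.8 to 54.5%), 59.2% with the combination (54.1 to 64.2%) and 67.7% in control (57.4 to 76.9%). Classical cells were therefore the more numerous relative to nonclassical ones with YKL-5-124.

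The 3 gate genes were not equally spread over the members. Treml4 had a UMI in 48 of 81 cells with anti-PD-1, 140 of 174 with YKL-5-124, 191 of 228 with the combination and 60 of 65 in control. Cd300e had one in 47, 84, 101 and 31 cells, and Adgre4 in 66, 133, 168 and 42 cells, in that order of groups. Only 22, 45, 49 and 15 cells held all 3 genes. Cells with 1 gate UMI, just outside the gate, numbered 38 with anti-PD-1, 98 with YKL-5-124, 104 with the combination and 49 in control. Cells with exactly 2, just inside, numbered 28, 53, 70 and 20. Eno3, the muscle-type enolase of glycolysis and a marker the gate did not use, had 188, 266, 323 and 441 CPM in the cells just inside and 187, 172, 225 and 160 CPM in those just outside. With anti-PD-1 the cells on both sides of the threshold were thus alike in Eno3. Ace, a further gene outside the gate, was alike there too, at 251 and 247 CPM. Other genes were not, with Nr4a1 at 712 CPM inside and 1082 outside, and Ccr2 at 52.4 and 375 CPM. Among cells with at least 2 gate UMIs, the limit on S100a8 and S100a9 removed 31 with YKL-5-124, against 1, 0 and 1 with anti-PD-1, with the combination and in control.

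Genes outside the gate fitted the label of nonclassical monocyte. Eno3 (chr11:70657202-70662513, plus strand, GRCm38) had 353 CPM with anti-PD-1, 387 with YKL-5-124, 474 with the combination and 415 in control, against 0, 4.81, 8.89 and 7.21 CPM in the narrower classical gate. In every library the nonclassical cells were far above the classical ones, by a mean of 4.81 on the log2 scale. Fold changes on the log2 scale carry a pseudocount of 10 CPM throughout. Ace, the angiotensin-converting enzyme of the cell surface, had 361, 366, 383 and 401 CPM in nonclassical cells and 32.4, 28.8, 44.5 and 36.1 CPM in classical ones, a mean log2 ratio of 3.10. Pglyrp1, a secreted protein that binds bacterial cell walls, had 1237, 930, 960 and 1069 CPM in nonclassical cells against 51.9, 78.1, 108 and 130 CPM in classical ones. Its 4 nonclassical values all lay above the 4 classical ones, as did those of Fabp4, a fatty acid carrier, with 190, 158, 299 and 304 CPM against 0, 1.2, 7.41 and 7.21 CPM. Gngt2, a G protein gamma subunit, was lower in classical cells as well, with 2043, 2352, 2634 and 2738 CPM in nonclassical cells and 337, 398, 462 and 332 CPM in classical ones.

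A list of 30 nonclassical monocyte genes, which leaves out the gate genes, had 28 measured against the narrower classical gate. Of these, 19 were at least 2-fold higher in all 4 libraries and none was lower, with a median log2 ratio of 2.0. Over all 2881 genes measured, 75 (2.6%) were higher and 40 (1.39%) lower in every library, with a median of 0.02. Against the classical gate as designed, 80 genes (2.66%) were higher and 86 (2.86%) lower of 3007. Of the genes called higher, 58 were shared, which is 72.5% of the list from the gate as designed and 77.3% of the list from the narrower one. Of the genes called lower only 14 were shared, 16.3% and 35% of these lists, so the lower genes depended on which classical gate was used.

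Against the narrower gate, 7 of 22 measured lineage and survival genes were higher, and of 20 measured adhesion and migration genes 4 were higher and 2 lower. Spn, the sialoglycoprotein CD43 that is used to sort nonclassical monocytes in mice, had 254 CPM with anti-PD-1, 204 with YKL-5-124, 248 with the combination and 249 in control, a mean log2 ratio of 2.58 to the narrower classical gate. Bcl2, which blocks apoptosis, stood at 2.58 on the same scale, S1pr5, a sphingosine phosphate receptor used for leaving bone marrow, at 2.25, and Itgal, the alpha chain of LFA-1, at 2.07. Fcgr4, an activating IgG receptor, had 230, 246, 207 and 244 CPM and a log2 ratio of 2.08. These 5 genes were past 2-fold in all 4 libraries against the narrower gate. Against the classical gate as designed, which also held NK cells, Spn, Bcl2 and S1pr5 were not past 2-fold in every library, at mean log2 ratios of 1.35, -0.73 and 0.75. Pou2f2, a transcription factor also used by B cells, had 381, 375, 379 and 424 CPM in nonclassical cells and 51.9, 106, 129 and 166 CPM in classical ones.

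Nr4a1 (chr15:101254269-101274795, plus strand, GRCm38), the nuclear receptor on which the cells depend, separated the 2 monocyte gates less. It had 1146 CPM with anti-PD-1, 964 with YKL-5-124, 1072 with the combination and 1438 in control, against 616, 639, 556 and 793 CPM in the narrower classical gate. All 4 nonclassical values were above the classical ones, but the mean log2 ratio of 0.81 was under the 2-fold rule. Against cells with at least 5 C1q UMIs, a macrophage gate of 122 cells with 266, 207, 185 and 303 CPM, the log2 ratio was 2.23. Cx3cr1 had 135 CPM with anti-PD-1, 110 with YKL-5-124, 168 with the combination and 221 in control. Its log2 ratio to the narrower classical gate was 0.95, and that of Csf1r, the receptor for macrophage colony-stimulating factor, was 0.47. Neither gene met the 2-fold rule in every library.

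**Figure D2:**
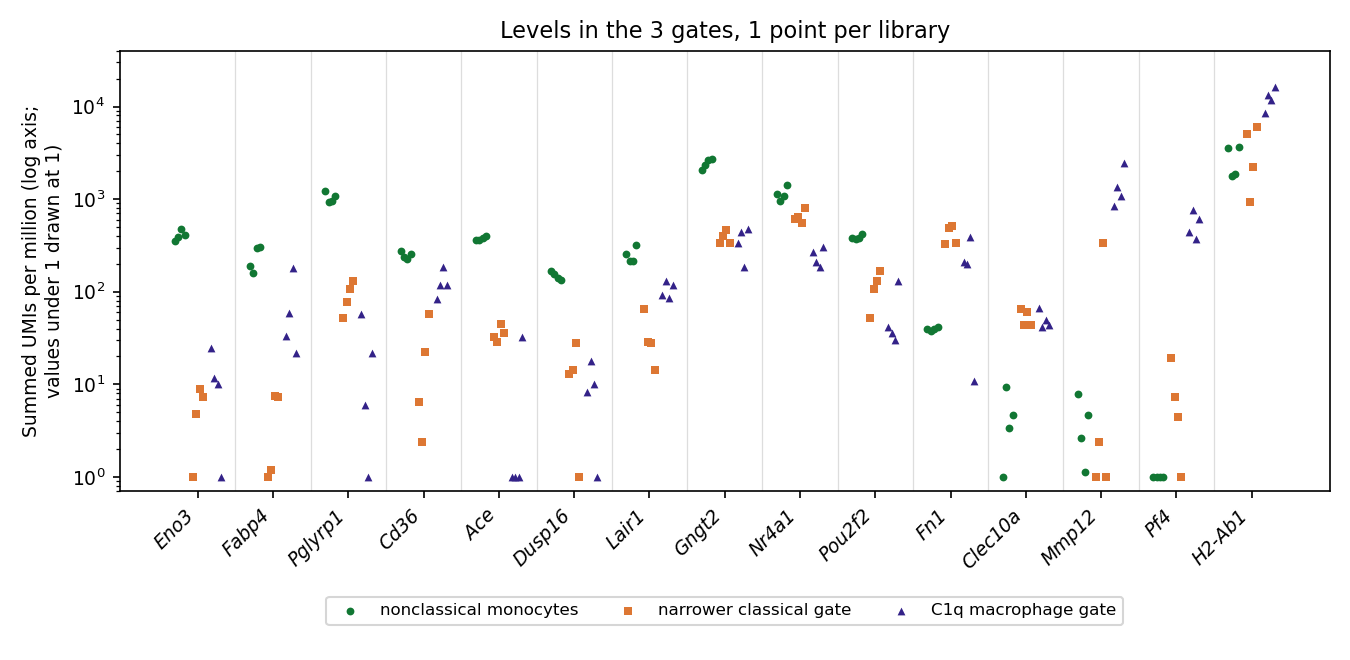
Levels of 15 genes in CPM (log axis, values under 1 drawn at 1) in nonclassical monocytes, the narrower classical gate and the C1q macrophage gate, with 1 point per library in the order anti-PD-1, YKL-5-124, combination and control. Eno3, Fabp4, Pglyrp1 and Ace were higher in nonclassical monocytes than in the narrower classical gate in all 4 libraries, while Fn1 was lower. Pf4 had no UMI in nonclassical monocytes and 370 to 770 CPM in the C1q gate.

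Among the genes lower in nonclassical monocytes than in the narrower classical gate were a gene of matrix and a chemokine gene. Fn1, fibronectin, had 39.7 CPM with anti-PD-1, 37.3 with YKL-5-124, 39.2 with the combination and 41.5 in control, against 324, 483, 519 and 339 CPM in the narrower classical gate, a mean log2 ratio of -3.08. The gene was low in nonclassical cells of every library. Ccl2, the chemokine that draws Ccr2-bearing monocytes, had 59.5, 26.6, 26.9 and 55.3 CPM against 324, 257, 363 and 880 CPM in classical cells. The genes that had defined the classical gate were lower by construction, Ly6c2 with a log2 ratio of -2.32. A list of classical genes that holds them had 8 of 14 measured genes lower, with a median of -2.09.

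Against the C1q macrophage gate, 157 of 3038 genes (5.17%) were higher and 121 (3.98%) lower in nonclassical monocytes in all 4 libraries. Pf4, platelet factor 4, which some tissue macrophages also make, had no UMI in nonclassical monocytes of any library and 440, 770, 370 and 616 CPM in the C1q gate. Of 13 measured macrophage genes, the C1q genes of the rule not among them, 8 were lower, with a median log2 ratio of -3.39. The class II antigen-presentation genes were lower in nonclassical monocytes too, 6 of 7 measured with a median of -1.99. Between the 2 monocyte gates none of the class II genes was called, with a median of -0.12.

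Markers of other cell types were low but not equal between libraries. The summed level of 13 SCLC tumour genes was 182 CPM with anti-PD-1, 599 with YKL-5-124, 106 with the combination and 41 in control, with 4, 0, 2 and 8 of the genes at 0. Without mixed members it was 64, 26, 37 and 44 CPM. NK cell genes summed to 674, 21, 28 and 23 CPM, and to 39, 23, 29 and 25 CPM without mixed members. B cell genes, immunoglobulin chains among them, summed to 365, 4332, 171 and 383 CPM, and to 373, 226, 172 and 370 CPM without mixed members. T cell genes stayed at 36, 41, 47 and 5 CPM, with 7, 2, 3 and 8 of 9 genes at 0. Conventional dendritic cell genes summed to 99, 81, 68 and 41 CPM, and neutrophil genes to 932, 1302, 394 and 959 CPM, the last list to 539, 547, 319 and 849 CPM without mixed members. The high values of tumour and B cell genes with YKL-5-124, and of NK cell genes with anti-PD-1, were thus carried by mixed members.

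The measured genes that mark nonclassical monocytes, without the gate genes, lay within 2-fold of control in every treated library. With a gene counted as measured at 50 CPM in either library and 30 UMIs in the pair, 28 of the 30 nonclassical genes were measured and none was called in any treated library. Such a minimum favours genes that are high in one of the libraries compared. Their median log2 ratio to control was -0.15 with anti-PD-1, -0.20 under YKL-5-124 and -0.14 with the combination, beside 0.01, 0.02 and -0.00 over all genes measured. Of the 28 genes, 18, 24 and 21 had a log2 ratio below 0 in that order of groups. Of 36 genes called higher with anti-PD-1 (1.66% of 2174 measured) and 22 called lower (1.01%), none was a gene of this list. The YKL-5-124 library had 137 genes higher (4.54% of 3019) and 17 lower (0.563%), and the combination had 57 higher (1.97% of 2894) and 23 lower (0.795%). At such rates a list of 28 genes would hold few calls, so the absence of calls does not set the nonclassical genes apart. When libraries were scaled by the median ratio, the split with YKL-5-124 was 82 higher and 24 lower.

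Many of these calls rested on single cells. A call was taken to hold when it also passed without the highest cell of the gene, with every cell weighted equally, and without mixed members. That left 21 higher and 12 lower with anti-PD-1, 33 higher and 7 lower with YKL-5-124, and 38 higher and 14 lower with the combination. Leaving out the highest cell takes a larger part of a gene's UMIs where members are few, as in control. By that step alone the median log2 ratio of the combination to control, over all measured genes, went from -0.005 to 0.097. The calls went from 57 higher and 23 lower to 81 and 12, so the step favours higher calls in that comparison. Among the genes with the largest ratios under YKL-5-124 were Ngp, a neutrophil granule gene with 158 of its 178 UMIs in 1 cell and none in control, Jchain, the antibody joining chain with 342 of 349 UMIs in 1 cell, and Mzb1, a plasma cell gene with 97% of its UMIs in 1 cell. The call of Ngp held all the same, at log2 ratios of 1.87 without its highest cell and 1.53 without mixed members that depend on the pseudocount, while Jchain and Mzb1 did not hold. All 13 measured G2 and mitosis genes were higher with YKL-5-124, with a median log2 ratio of 2.75, and the median was -0.12 without mixed members. The 5 measured tumour genes behaved likewise, at 2.96 with and -0.18 without mixed members. Mki67, which marks dividing cells, had 0 UMIs with anti-PD-1, 46 in 6 cells with YKL-5-124, 10 in 3 cells with the combination and 0 in control.

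**Figure D3:**
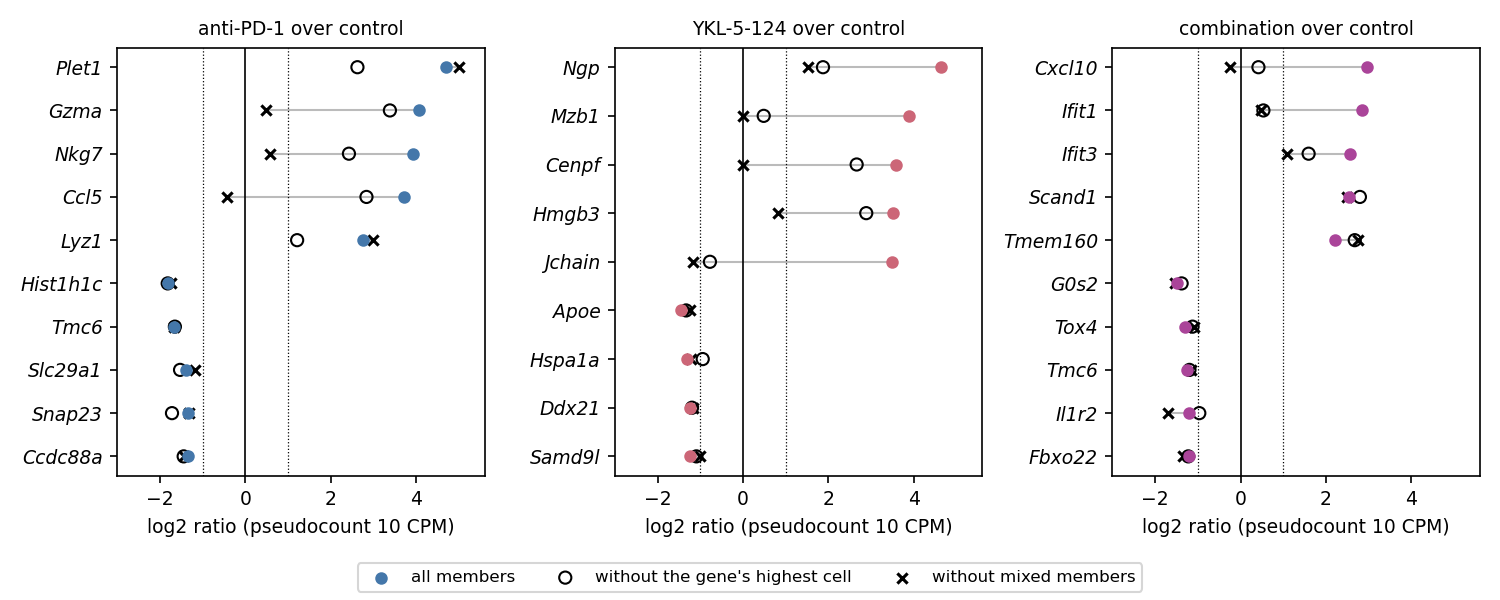
Log2 ratio to control of genes among the 5 with the highest and the 5 with the lowest ratio in each treated library, over all nonclassical monocytes (filled), without the cell holding most UMIs of the gene (open circle) and without mixed members (cross), with dotted lines at 2-fold. Jchain and Cxcl10 came close to or below control without 1 cell, whereas Apoe with YKL-5-124 stayed past 2-fold either way.

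Summed over all members, class II antigen-presentation genes had lower levels than control in the 2 libraries given YKL-5-124, with ratios from 0.425 to 0.876. With anti-PD-1 the result depended on the gate, and H2-Ab1 was near control with the gate of 2 UMIs and past 2-fold lower with a gate of 3. These genes encode the chains of the MHC class II molecules that show peptides to CD4 T cells, and Cd74, the invariant chain that guides their folding. H2-Ab1 (chr17:34257689-34269419, plus strand, GRCm38) had 3573 CPM with anti-PD-1, 1785 with YKL-5-124, 1848 with the combination and 3627 in control. With the gate of 2 UMIs the 2 libraries given YKL-5-124 were low, and the other 2 were high. The ratio to control was 0.985 with anti-PD-1 (0.894 to 1.09), 0.492 under YKL-5-124 (0.450 to 0.538) and 0.509 with the combination (0.468 to 0.555). The levels turned on which cells the gate let in, those of anti-PD-1 and control most of all. Cells with exactly 2 gate UMIs had 6010 CPM with anti-PD-1, 2677 with YKL-5-124, 2021 with the combination and 699 in control. Control was thus the lowest library among these cells, and both libraries given YKL-5-124 lay above it. Cells with at least 4 had 509, 1511, 1205 and 4396 CPM in that order of groups, with control the highest. With a gate of 3 UMIs the log2 ratio of H2-Ab1 to control was -1.14 with anti-PD-1, -1.63 under YKL-5-124 and -1.37 with the combination, so all 3 treated libraries were then past 2-fold lower. With the gate of 2 UMIs, H2-Eb1 (chr17:34305867-34316674, plus strand) had 1364, 647, 728 and 1452 CPM and ratios of 0.940, 0.446 and 0.502. H2-Aa (chr17:34282744-34287823, minus strand) had 2217 CPM with anti-PD-1, 1489 with YKL-5-124, 1468 with the combination and 2904 in control, ratios of 0.764, 0.513 and 0.506. Cd74 was within 2-fold of control in every library at this gate, with 12525, 8581, 9591 and 14439 CPM and ratios of 0.867, 0.594 and 0.664. H2-DMb1, a chain of the molecule that loads peptides, had 254, 172, 170 and 401 CPM and ratios of 0.633, 0.428 and 0.425. Its partner H2-DMa had 397, 230, 275 and 313 CPM and ratios of 1.27, 0.735 and 0.876.

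The promoters of these genes share short control elements, among them the Y box, which binds the factor NF-Y. The promoters of H2-Aa, H2-Ab1 and H2-Eb1 were looked up, and the promoter source had no entry for H2-Ab1. The 250 bases before the annotated start are therefore shown for H2-Aa and H2-Eb1. Both are from RefSeq on GRCm38.p6, H2-Aa at chr17:34287824-34288073 (minus strand) and H2-Eb1 at chr17:34305617-34305866 (plus strand). Each is printed 5′ to 3′, with the Y box core CTGATTGG in capitals.
H2-Aa: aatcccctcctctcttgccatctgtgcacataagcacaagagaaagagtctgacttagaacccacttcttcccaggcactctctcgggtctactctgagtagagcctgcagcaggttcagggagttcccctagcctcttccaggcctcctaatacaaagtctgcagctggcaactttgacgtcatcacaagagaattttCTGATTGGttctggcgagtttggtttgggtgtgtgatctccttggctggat
H2-Eb1: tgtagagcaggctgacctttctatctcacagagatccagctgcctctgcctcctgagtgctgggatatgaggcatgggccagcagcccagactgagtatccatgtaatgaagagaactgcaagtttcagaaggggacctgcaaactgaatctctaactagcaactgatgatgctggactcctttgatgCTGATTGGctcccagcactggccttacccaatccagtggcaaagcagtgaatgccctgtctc
The core began 51 bases before the start of H2-Aa and 62 bases before that of H2-Eb1. Searched on both strands, it was found in 1258 of 32851 promoter windows of this length (3.83%). A match describes the letters of the window and does not show binding.

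By the 2-fold rule, 0, 3 and 1 of the 6 measured class II genes, of 11 listed, were lower than control in the libraries of anti-PD-1, of YKL-5-124 and of both agents, with median log2 ratios of -0.15, -0.99 and -0.97. Over all measured genes 1.01, 0.563 and 0.795% were lower in the same comparisons. With a gate of 3 UMIs the class II medians were -1.30, -1.60 and -1.35. The genes thus sat at the edge of the rule in both libraries given YKL-5-124. Their median was -1.13 with YKL-5-124 and -1.50 with the combination without mixed members. With every cell weighted equally it was -0.79 with anti-PD-1, -0.91 under YKL-5-124 and -1.13 with the combination, so the anti-PD-1 value also depended on how cells were weighted. Between the combination and YKL-5-124 the median log2 ratio was 0.11, and its sign turned to give -0.17 with equal weight and -0.33 without mixed members.

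**Figure D4:**
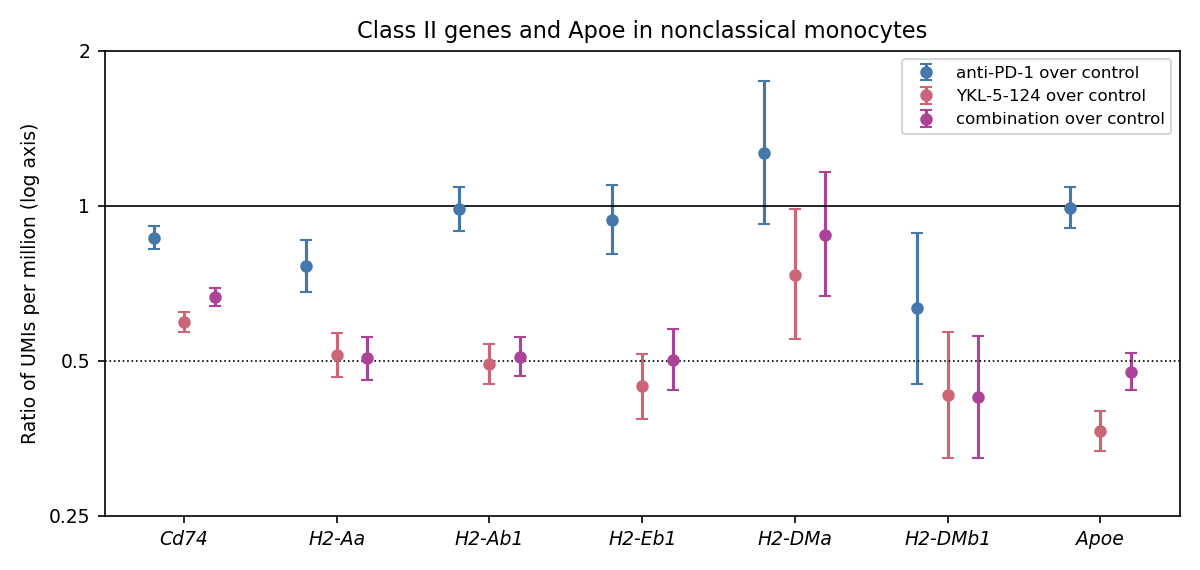
Ratio of the level in each treated library to that in control (log axis) for 6 class II antigen-presentation genes and Apoe in nonclassical monocytes, with exact 95% intervals for counting error, a solid line at 1 and a dotted line at 0.5. With YKL-5-124 and with the combination H2-Aa, H2-Ab1 and H2-Eb1 lay near 0.5 and Apoe at 0.365 and 0.476, while with anti-PD-1 H2-Ab1 and Apoe lay at 0.985 and 0.992. The values are for the gate of 2 UMIs; with a gate of 3 the log2 ratio of H2-Ab1 with anti-PD-1 was -1.14.

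The class II RNA was concentrated in few cells. After thinning to 1500 UMIs, which kept 72, 171, 214 and 59 cells with anti-PD-1, YKL-5-124, the combination and control, the median cell held 4, 3, 4 and 5 UMIs of Cd74, H2-Aa, H2-Ab1 and H2-Eb1. The mean was 18.0, 16.8, 16.1 and 29.9 UMIs, and the 90th percentile 57.7, 56, 55.4 and 107.6 UMIs. Control stood apart in its upper tail and much less in its median. Cells with at least 30 such UMIs were 16.7% with anti-PD-1 (8.92 to 27.3%), 19.3% with YKL-5-124 (13.7 to 26.0%), 15.9% with the combination (11.3 to 21.5%) and 25.4% in control (15.0 to 38.4%). These intervals overlap. The class II-rich cells held 77.6, 73.6, 68.4 and 85.1% of the class II UMIs, and averaged 83.9, 63.9, 69.4 and 100 UMIs each. In control they were 15 cells, so the control level of these genes rested on few cells. The threshold of 30 UMIs was set after the data were seen, and 1, 6, 15 and 3 cells lay within 5 UMIs of it. At a threshold of 50 UMIs the shares were 11.1, 12.3, 11.7 and 22%.

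**Figure D5:**
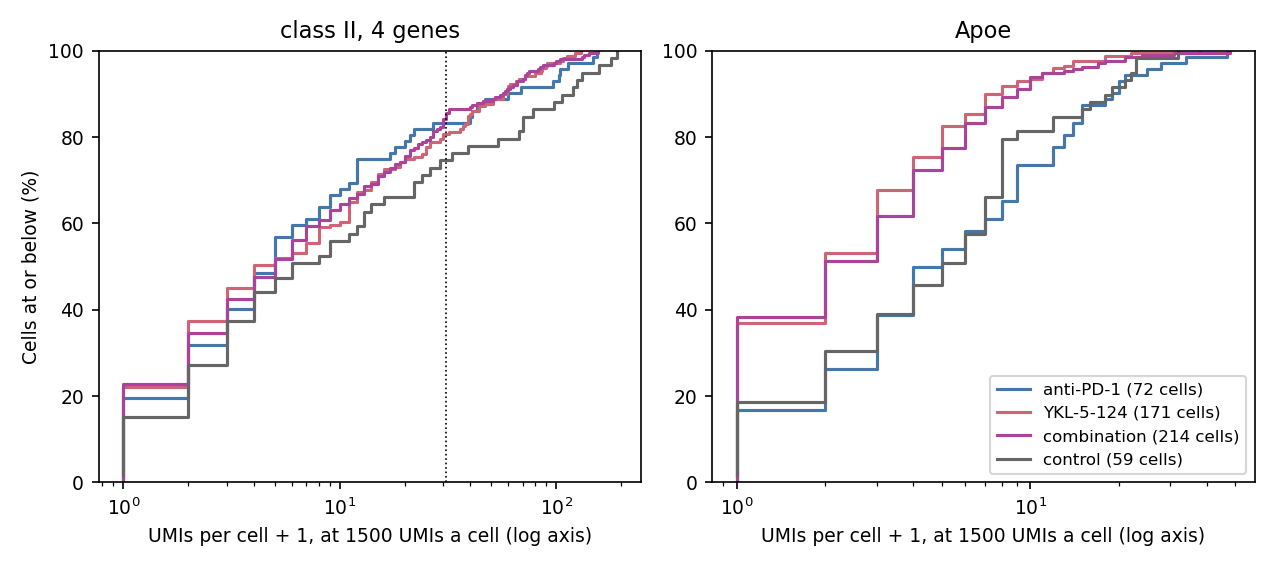
Cumulative percentage of nonclassical monocytes by UMIs per cell after thinning to 1500 UMIs (72, 171, 214 and 59 cells; log axis of UMIs plus 1), for 4 class II genes (left, dotted line at 30 UMIs) and for Apoe (right). The class II curves ran close together up to the median and parted in the upper tail, where control had more UMIs, while the Apoe curves of YKL-5-124 and the combination lay to the left over most cells.

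Class II-rich cells had less Pglyrp1, Eno3, Fcgr4 and gate gene Cd300e than the other members in all 4 libraries. Ace, Nr4a1, Gngt2 and Cx3cr1 were not lower in every library. Pglyrp1 had 341 CPM in class II-rich and 1519 CPM in the other members with anti-PD-1, 458 and 1052 CPM with YKL-5-124, 357 and 1063 CPM with the combination, and 359 and 1330 CPM in control. Eno3 had 142 and 444 CPM with anti-PD-1, 261 and 422 CPM with YKL-5-124, 380 and 502 CPM with the combination, and 163 and 520 CPM in control. For Fcgr4 the values were 28.4 and 292, 203 and 256, 51.8 and 247, and 131 and 263 CPM in that order of groups. Ace was lower in class II-rich cells of 3 libraries but had 401 and 359 CPM with YKL-5-124, and Nr4a1 had 1049 and 937 CPM there. Flt3, a receptor that conventional dendritic cells need, had 4 UMIs in class II-rich against 0 in the other members with anti-PD-1, 9 against 0 with YKL-5-124, 7 against 2 with the combination and 1 against 0 in control. These UMIs came from 2, 2, 3 and 1 class II-rich cells, so most of those cells had no Flt3. Batf3, also of the conventional dendritic cell list, was higher in class II-rich cells of all 4 libraries. It had 142 and 5.84 CPM with anti-PD-1, 50.9 and 23.7 with YKL-5-124, 57.6 and 18.5 with the combination and 65.3 and 6.75 in control. Its UMIs lay in 7, 4, 4 and 3 class II-rich cells. Cd209a of that list had 1, 0, 0 and 0 UMIs in class II-rich cells. The share that dendritic cells or doublets take in the class II-rich cells was not tested.

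Other populations did not share one pattern for class II. In the narrower classical gate H2-Ab1 had 5062 CPM with anti-PD-1, 933 with YKL-5-124, 2249 with the combination and 6058 in control, ratios of 0.154 and 0.371 for the 2 libraries given YKL-5-124. The C1q gate had 8454, 13161, 11818 and 16115 CPM, with its lowest value under anti-PD-1, and B cells had 5722, 6512, 6555 and 5332 CPM. Free RNA, taken from barcodes with 10 to 100 UMIs, held 1342, 1290, 1406 and 1238 CPM. The ratio of YKL-5-124 to control was thus under 0.5 in both monocyte gates, 0.817 in the C1q gate and 1.22 in B cells. In T cells it was 0.699, and that of the combination was 1.64.

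Apoe, which encodes the lipid carrier apolipoprotein E (chr7:19696109-19699188, minus strand, GRCm38), was lower in both libraries given YKL-5-124. It had 3922 CPM with anti-PD-1, 1444 with YKL-5-124, 1883 with the combination and 3954 in control. Over all members, anti-PD-1 and control were alike and high, and the other 2 libraries were low. The ratio to control was 0.992 with anti-PD-1 (0.904 to 1.09), 0.365 under YKL-5-124 (0.334 to 0.400) and 0.476 with the combination (0.438 to 0.518). In log2 terms YKL-5-124 gave -1.45 and ranged from -1.81 to -1.22 over all alternatives, and the combination gave -1.07 and ranged from -1.22 to -0.96, the last just inside the 2-fold rule. The combination was above YKL-5-124 by a ratio of 1.30 (1.21 to 1.41). In cells with exactly 2 gate UMIs the libraries were closer, at 2366, 1839, 1673 and 1968 CPM in the order of groups above. Cells with at least 4 had 5226, 1228, 2161 and 4244 CPM.

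Unlike class II, Apoe differed in the typical cell. The median thinned cell held 3.5 UMIs with anti-PD-1, 1 with YKL-5-124, 1 with the combination and 4 in control. An Apoe UMI was found in 83.3, 63.2, 61.7 and 81.4% of thinned cells, against 91.4, 70.7, 72.4 and 90.8% of all members before thinning. In T cells, which should lack the gene, the thinned share was 2.59, 3.67, 3.74 and 2.76%. The thinned share in B cells was 40.3, 26.8, 22.4 and 38.8%, also lower in the libraries given YKL-5-124. Free RNA held 673, 571, 551 and 556 CPM of Apoe, a smaller spread than in the monocytes. Apoe was also lower in the narrower classical gate, with 3662 CPM with anti-PD-1, 2372 with YKL-5-124, 1808 with the combination and 3101 in control. In B cells it had 772, 494, 412 and 979 CPM, also lower in the libraries given YKL-5-124, whereas T cells had 86.6, 85.6, 78.5 and 60.0 CPM, lowest in control. The C1q gate had 13212, 11396, 2807 and 11908 CPM, low with the combination alone.

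Trem2, a lipid-sensing receptor of macrophages that can bind apolipoprotein E, ran the other way. It had 19.8 CPM with anti-PD-1, 75.9 with YKL-5-124, 69.5 with the combination and 13.8 in control. The 57 and 62 UMIs of the libraries given YKL-5-124 came from 38 and 41 cells, so no single cell carried them. The log2 ratio to control was 1.85 with YKL-5-124 and 1.74 with the combination, and 1.84 and 1.78 without mixed members. With 3 UMIs in control, the plain ratio of 5.49 with YKL-5-124 had an interval of 1.79 to 27.4. In the narrower classical gate Trem2 had 45.4, 115, 110 and 50.5 CPM, again higher in the 2 libraries given YKL-5-124, and free RNA held 16.7, 20.4, 23.7 and 14.5 CPM.

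The interferon-response genes with the largest ratios with the combination had most of their UMIs in single cells. Cxcl10, a chemokine for activated T cells, had 35.7 CPM with anti-PD-1, 7.99 with YKL-5-124, 104 with the combination and 4.61 in control. In the combination 90 of its 93 UMIs lay in 1 cell, and the log2 ratio to control of 2.97 became 0.42 without the highest cell of each library. Ifit1 and Ifit3, antiviral effectors, had 51 of 55 and 50 of 68 UMIs in 1 cell. The call of Ifit3 held in the 3 alternatives, at 1.59 without the highest cell and 1.08 without mixed members, and that of Ifit1 did not. Slfn5, a further interferon-induced gene, differed from these, with 59.5, 62.6, 136 and 59.9 CPM and UMIs in 69 cells of the combination, a log2 ratio of 1.06. Of 28 measured interferon genes, 4 were higher with the combination than in control, beside 1.97% of all measured genes, with a median log2 ratio of 0.15. The medians of anti-PD-1 and YKL-5-124 were -0.29 and -0.35, with 19 and 24 genes measured. The combination was above YKL-5-124 by a median of 0.49 and above anti-PD-1 by 0.41, and by 0.17 and 0.23 without mixed members.

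With anti-PD-1, the genes with the largest ratios included those of cytotoxic lymphocytes. Gzma, the protease granzyme A, had 389 CPM with anti-PD-1, 6.7 with YKL-5-124, 11.2 with the combination and 13.8 in control, and Ccl5, a chemokine of T and NK cells, had 722, 59.9, 53.8 and 46.1 CPM. Without mixed members their log2 ratios of 4.06 and 3.71 became 0.48 and -0.42. Plet1 had 63 UMIs with anti-PD-1, of which 50 were in 1 cell, and the call held without that cell at a log2 ratio of 2.62, which depends on the pseudocount because control had no UMI. Among the genes lower with anti-PD-1, Hist1h1c, a linker histone, had 59.5, 124, 165 and 235 CPM and a log2 ratio of -1.82, and Ccdc88a, an actin-binding protein of cell migration, had 107, 137, 195 and 286 CPM and a ratio of -1.34. For both, control was the highest and anti-PD-1 the lowest library, and both calls held in the 3 alternatives.

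The combination also had lower G0s2, an inhibitor of the fat-splitting enzyme ATGL, with 516 CPM with anti-PD-1, 510 with YKL-5-124, 262 with the combination and 756 in control. Its log2 ratio was -1.49 to control and -0.93 to YKL-5-124. G0s2 is also a gene of the neutrophil list, so the 2 results are not separate. That list summed to 932, 1302, 394 and 959 CPM in the same order of groups, with G0s2 included. The part of neutrophil RNA in the G0s2 values was not tested. In the narrower classical gate G0s2 had 356, 40.9, 51.9 and 260 CPM, so the order of libraries was another one there. Scand1, which encodes a SCAN-domain protein, had 63.5 CPM with anti-PD-1, 58.6 with YKL-5-124, 128 with the combination and 13.8 in control, ratios to control of 4.59 (1.31 to 24.6), 4.24 (1.36 to 21.3) and 9.24 (3.08 to 45.5) with only 3 UMIs in control. It was also highest with the combination and lowest in control in T cells, at 48.5, 40.6, 95.3 and 20.3 CPM, in B cells, at 50.5, 42.5, 98.6 and 23.9 CPM, and in free RNA, at 76.4, 60.4, 91.2 and 59.5 CPM. The order of the libraries for Scand1 was therefore the same outside the monocytes.

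Set against each single agent, the combination had few calls that held. Against YKL-5-124, 11 of 2910 genes were higher (0.378%) and 70 lower (2.41%), of which 1 and 3 held in all alternatives. The single gene that held as higher was Cyp51, an enzyme of cholesterol synthesis, with 57.1 CPM with the combination and 22.6 CPM with YKL-5-124, a log2 ratio of 1.04. Hdc, which makes histamine, was lower, with 28.0 CPM with the combination and 117 CPM with YKL-5-124, a ratio of -1.74. The other lower genes that held were Ngp and Retnlg, both neutrophil genes. The neutrophil list summed to 394 CPM with the combination and 1302 CPM with YKL-5-124, where 16 mixed members held neutrophil genes, and its part in the Hdc value was not tested. Against anti-PD-1, 32 of 2916 genes were higher (1.1%) and 51 lower (1.75%), of which 17 and 20 held. Trem2 was among the higher ones at 1.41. These comparisons share the combination library with the one against control.

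The targets of the 2 agents were barely detected. Cdk7 had 5 UMIs with anti-PD-1, 15 with YKL-5-124, 16 with the combination and 3 in control, or 19.8, 20, 17.9 and 13.8 CPM. Pdcd1, which encodes PD-1, had 1 UMI in all, with YKL-5-124. Cd274, which encodes its ligand PD-L1, had 55.5 CPM with anti-PD-1, 14.6 with YKL-5-124, 29.1 with the combination and 23 in control. Of the lineage and survival genes 21, 22 and 22 were measured against control, in the order of treated groups above. Of the Fc receptor and phagocytosis genes 19, 21 and 21 were measured, and of the checkpoint ligand genes 5, 6 and 6. None of these genes was called in any treated library. Over all measured genes 1.66, 4.54 and 1.97% were called higher and 1.01, 0.563 and 0.795% lower. At such rates lists this short would hold few calls, so the absence of calls does not set these genes apart.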

How the data were processed

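Single-cell RNA libraries of 4 groups, 1 per group, were read from the deposited matrices, which the authors left as raw UMI counts (whole numbers, unfiltered barcodes). Cell Ranger and bcl2fastq are named in the submitters' processing notes, and software version 3.0.0 is recorded per the file headers. The notes also name hg19, although the gene IDs are mouse Ensembl IDs, and the sources used here do not give the build behind the counts. Gene locations came from GENCODE M21 (GRCm38) and promoters from RefSeq.

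The members and gene lists were chosen with earlier results of these data known. UMIs of the members were summed per library and scaled to CPM. Log2 ratios carried a pseudocount of 10 CPM. A gene was measured at 50 CPM in either library and 30 UMIs in the pair, and called past 2-fold, a size rule with no test behind it. Between populations, a call had to pass in all 4 libraries. Intervals are exact (binomial, Poisson or conditional binomial) at 95%, and floors allow 3 counts; both cover counting error only. A sum weighs each cell by its UMIs. Doublets were scored with Scrublet, which by its own threshold marked fewer than 0.5% of cells per library; all cells stayed in, and removal of the highest scores was an alternative. Cells were thinned to 1500 UMIs for values per cell.

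Named genes were the 5 highest and 5 lowest ratios per treatment comparison whose interval excludes 1, the 10 highest and 10 lowest per population comparison, up to 4 per list described and a fixed set of genes; not all of them are described, and some are not reported here. Ccl2, Fn1 and Pf4 were taken from the lists or that ranking. Trem2, Cyp51, Hdc, Flt3, Batf3 and Cd209a were singled out after their values were seen. The ratio step was tested on simulated data. Versions were Scanpy 1.11.5, Matplotlib 3.10.9, pandas 2.3.3, SciPy 1.17.1, NumPy 2.4.6 and Python 3.11.15.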

Additional observations from a re-analysis of the deposited data

How the results depend on the processing

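Every ratio of shares kept its direction under each alternative run; the interval took in 1 for anti-PD-1 over control with a gate of 3 UMIs (1.50) and without mixed members (1.41), and for the combination over YKL-5-124 outside S100a8- and S100a9-rich cells (1.17). Counts of called genes moved by over 1.5 times in these cases; main counts were 58 (anti-PD-1 over control), 154 (YKL-5-124 over control), 80 (combination over control), 81 (combination over YKL-5-124) and 83 (combination over anti-PD-1). A pseudocount of 1 CPM gave 89, 232 and 139 against control and 142 for the combination over anti-PD-1. No minimum level gave 1090, 915 and 511 against control, and 339 and 481 for the combination over YKL-5-124 and anti-PD-1. Equal weight per cell gave 89 for anti-PD-1 over control, and 18 and 132 for the combination over YKL-5-124 and anti-PD-1. For YKL-5-124 over control and the combination over YKL-5-124, a gate of 3 UMIs gave 276 and 143 genes, and removal of the highest doublet scores 64 and 19. Alternatives added after seeing the data gave, for the same pair, 75 and 9 without mixed members and 78 and 20 without shared barcodes; leaving out the highest cell gave 40 for the combination over YKL-5-124. The cause was not tested. Genes called between populations numbered 166 (classical gate as designed) and 278 (C1q gate), and 174 to 222 and 321 to 400 when each library was left out, which needs a call in fewer libraries. Some signs turned: without mixed members Ccl5 (anti-PD-1 over control) came to -0.42 and the G2 and mitosis median (YKL-5-124 over control) to -0.12, and the class II median of the combination over YKL-5-124 to -0.33. No paired analysis was possible because each group has 1 library. Depth limits genes under about 13.8 CPM in control.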

Other observations

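Levels of some inflammatory and immediate-early genes depended on how single cells were counted. Il1b, the cytokine interleukin 1 beta, had 1194 CPM in nonclassical monocytes with anti-PD-1, 1090 with YKL-5-124, 1415 with the combination and 1756 in control, within 2-fold throughout. Ccl4, a chemokine for T cells and monocytes, had 246 CPM with anti-PD-1, 647 with YKL-5-124, 601 with the combination and 355 in control. In control 48 of its 77 UMIs lay in 1 cell. Without the highest cell of each library its log2 ratio to control was 1.86 with YKL-5-124 and 1.96 with the combination, against 0.85 and 0.74 with all cells. Leaving out the highest cell also raised the median over all measured genes, to 0.07 and 0.10 in these comparisons. Egr1, an immediate-early transcription factor, had 143, 124, 114 and 55.3 CPM, with log2 ratios of 1.23, 1.03 and 0.93, and of 0.97, -0.02 and 0.17 with cells weighted equally.

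Hspa1a, an inducible heat-shock protein, had 71.4 CPM in nonclassical monocytes with anti-PD-1, 38.6 with YKL-5-124, 90.8 with the combination and 111 in control. Control was also the highest library in T cells, at 15.0, 33.5, 25.4 and 75.4 CPM, and in B cells, at 9.58, 11.7, 30.9 and 98.8 CPM. In free RNA, Scgb1a1, a secretory protein of airway club cells, had 899, 1723, 2802 and 640 CPM, and this gene was called higher in the nonclassical monocytes of the combination.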
